A study of Rattus norvegicus with 10 samples.

Results

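Adenylyl cyclases and phosphodiesterases, the enzymes that make and break down cyclic nucleotides, were compared in fetal rat hearts between control (CON) and hyperglycemic (HG) pregnancies. The genes were taken by symbol, Adcy or Pde followed by a digit, and 35 of the 18025 genes listed carried such a symbol. When averaged over the 10 libraries, 28 of them reached 0.1 FPKM, 8 of 10 Adcy and 20 of 25 Pde genes. FPKM is the number of reads of a gene divided by its length and by the read total of its library. The nearest gene under this limit was Pde4c with a mean of 0.0776 FPKM, and the nearest over it was Pde1c with 0.118 FPKM.

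Hearts were collected on embryonic day 19.5 from wild-type Sprague-Dawley fetuses, and each group held 5 libraries of mRNA. Dams were 3 months old. The study's methods place mating before the injections, while its introduction places the hyperglycemia before pregnancy. HG dams were given streptozotocin, which is toxic to the insulin-producing beta cells, in citric acid buffer, and CON dams the buffer alone, daily for 3 days by intraperitoneal injection. Diabetes was defined by a non-fasting glucose above 16 mM, measured 7 days later, so that the HG group models maternal diabetes through a toxin. The labels give neither fetal sex nor the litter or number of hearts behind a library, and the p-values then measure only the spread between these libraries, which may be technical in part.

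Cyclic AMP is made from ATP by membrane adenylyl cyclases, which are switched on by Gs-coupled receptors such as the beta-adrenergic receptors and held back by Gi-coupled receptors. In cardiomyocytes it activates protein kinase A (PKA), whose targets set calcium handling, contraction and heart rate, and it opens pacemaker channels and activates the exchange factors Rapgef3 and Rapgef4. Phosphodiesterases end the signal in small compartments of the cell: some families cleave cAMP, some cGMP, the second messenger of nitric oxide and natriuretic peptides, and some cleave both. Symbols of the Pde series also name proteins that do not cleave cyclic nucleotides, namely Pde4dip (myomegalin, a scaffold protein), Pde6d (a carrier of prenylated proteins) and Pde12 (a mitochondrial enzyme that trims RNA tails). Pde6g, a regulatory subunit without catalysis of its own, is counted here with the cGMP-specific enzyme it belongs to.

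Promoters were read from RefSeq on build GRCr8, as 300 bases from 250 before to 50 after a transcription start, and 19 of the 28 genes had 30 of them. A selection from genes that passed the test, some lower and some higher in HG, is shown. Pde1a and Pde4d (higher) and Pde4dip (lower) also passed and had windows, which are not shown. Capitals mark the GC box (GGGCGG) and the short form of the cAMP response element (TGACG), searched on both strands, so that CCGCCC and CGTCA are the same motifs on the other strand. The first 2 genes, Adcy1 (chr14:86124869-86125168, plus strand) and Adcy5 (chr11:79123294-79123593, minus strand), were lower in HG. Adcy4 (chr15:33251977-33252276, minus strand) was higher. Pde4a was lower and has several starts in the table, of which the one with most motifs is given (chr8:27966737-27967036, plus strand). Pde2a was lower, and the start with motifs is given (chr1:165265759-165266058, plus strand). Pde10a was higher, and the start with short elements is given (chr1:54765619-54765918, minus strand).
Adcy1: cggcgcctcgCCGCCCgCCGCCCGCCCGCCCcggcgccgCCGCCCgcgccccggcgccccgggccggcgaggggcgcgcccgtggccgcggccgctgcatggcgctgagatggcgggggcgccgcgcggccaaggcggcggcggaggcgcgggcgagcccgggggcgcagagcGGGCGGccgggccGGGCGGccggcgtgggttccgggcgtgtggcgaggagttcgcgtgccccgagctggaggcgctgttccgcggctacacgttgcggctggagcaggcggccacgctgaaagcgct
Adcy5: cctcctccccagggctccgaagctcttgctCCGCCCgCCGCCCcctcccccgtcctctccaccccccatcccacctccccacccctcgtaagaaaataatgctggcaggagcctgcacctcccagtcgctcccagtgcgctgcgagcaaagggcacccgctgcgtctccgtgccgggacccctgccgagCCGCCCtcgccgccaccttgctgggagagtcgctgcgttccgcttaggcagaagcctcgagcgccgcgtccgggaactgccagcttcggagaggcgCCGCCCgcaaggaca
Adcy4: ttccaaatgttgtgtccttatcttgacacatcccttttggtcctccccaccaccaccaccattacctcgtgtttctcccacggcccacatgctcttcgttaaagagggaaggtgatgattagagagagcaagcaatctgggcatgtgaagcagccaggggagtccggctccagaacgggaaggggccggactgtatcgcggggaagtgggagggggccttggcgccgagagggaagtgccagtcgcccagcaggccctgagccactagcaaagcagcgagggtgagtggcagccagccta
Pde4a: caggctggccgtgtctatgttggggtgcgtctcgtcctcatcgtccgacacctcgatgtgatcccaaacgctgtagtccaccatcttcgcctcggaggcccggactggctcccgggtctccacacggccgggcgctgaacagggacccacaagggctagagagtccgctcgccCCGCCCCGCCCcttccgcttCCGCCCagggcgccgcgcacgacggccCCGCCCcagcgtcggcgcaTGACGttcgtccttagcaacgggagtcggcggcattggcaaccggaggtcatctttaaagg
Pde2a: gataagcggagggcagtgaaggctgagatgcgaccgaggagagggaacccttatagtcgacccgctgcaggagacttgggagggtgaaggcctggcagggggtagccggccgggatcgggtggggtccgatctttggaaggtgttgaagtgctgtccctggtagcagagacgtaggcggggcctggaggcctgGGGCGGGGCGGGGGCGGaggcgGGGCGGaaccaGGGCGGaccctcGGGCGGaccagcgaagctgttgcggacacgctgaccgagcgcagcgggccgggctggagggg
Pde10a: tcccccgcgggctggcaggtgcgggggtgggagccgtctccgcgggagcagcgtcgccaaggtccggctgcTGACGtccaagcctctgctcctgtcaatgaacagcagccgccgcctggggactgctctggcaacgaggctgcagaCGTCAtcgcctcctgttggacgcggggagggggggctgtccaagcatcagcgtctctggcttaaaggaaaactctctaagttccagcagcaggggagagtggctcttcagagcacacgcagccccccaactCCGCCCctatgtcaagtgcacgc
The Adcy1 window held 7 GC boxes and was 84.7% G or C, against a median of 51.7% over all promoters. The Adcy5 window held 4 and the Adcy4 window 0. The Pde2a window not shown held 0, and the other Pde4a windows held 0 to 3. Those of Pde1a held 0, and those of Pde4d and Pde4dip 0 or 1. GC boxes were found in 17 of the 30 promoters and in 33.1% of all 33469 promoters. The short element was found in 8 of the 30 and in 21.2% of all, and the whole element (TGACGTCA), which contains it, in 0 of the 30 and in 1.83% of all. The TATA box (TATAAA) was found in 1 of the 30 and in 14.2% of all. These matches describe the letters of these windows only.

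Reads on genes numbered 17639895 to 18240006 in CON libraries and 16672876 to 19109844 in HG libraries. Within a group, log2(FPKM + 0.1) correlated at 0.988 to 0.992 across genes. Marker genes are counted as higher or lower in HG where they passed the test described in the next paragraph. Of all genes tested, 28.4% were higher and 11.8% lower, and the marker lists are short beside such shares. Cardiomyocyte markers were present in every library, with a sum of 19225 to 20423 FPKM over 9 genes in CON and 15415 to 17930 FPKM in HG. Of the 9, 7 were lower and 0 higher in HG. Markers of smooth muscle and pericytes summed to 783.1 to 904.7 FPKM in CON and 994.7 to 1258 FPKM in HG, with 3 of 7 higher and 1 lower. Erythroid markers summed to 7008 to 12558 FPKM in CON and 5173 to 7258 FPKM in HG, with 5 of 6 lower. Endothelial markers summed to 228.5 to 245.6 FPKM in CON and 232.0 to 250.8 FPKM in HG, with 1 of 6 higher. Fibroblast markers were higher in 2 of 6 and lower in 2, and macrophage markers higher in 3 of 6 and lower in 1. Lower genes numbered 1 of 4 for the epicardium, 2 of 4 for neurons and glia and 3 of 3 for liver, with 0 higher. The skeletal muscle list had 2 of 3 lower, Ckm (mean 1013 FPKM in CON, 518 FPKM in HG) and Acta1 (2362 and 1857 FPKM). The 1 higher gene, Myog, reached at most 0.745 FPKM, and Myod1 was under the level limit. Platelet markers passed in 0 of 3, and of the lung list 0 genes reached the level limit. Liver markers reached 66.5 FPKM in CON replicate 3 and at most 5.20 FPKM in the other libraries; without this replicate, 14 of the 28 genes passed the test instead of 13. The labels give heart tissue, but the study also speaks of isolated cardiomyocytes and of pooled RNA for this sequencing, and which of these stands behind the libraries could not be settled; markers of vessels and blood were present in each. In bulk RNA fewer cells of a type and less RNA per cell cannot be told apart, and the part of these cell markers in the results below was not tested.

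Of the 28 genes, 13 passed the test (limma on log2(FPKM + 0.1), Benjamini-Hochberg adjusted p under 0.05 over all 14542 genes tested), against 40.1% of all genes. In HG, 7 were higher and 6 lower, where 28.4% of all genes were higher and 11.8% lower. The share of calls that were higher, 53.8% for these genes and 70.7% for all, depended on the scaling: with median-of-ratios factors it was 38.5% and 47.1%, and after quantile normalization 38.5% and 53.0%. Adcy4 and Pde4d lost their calls and Adcy9 and Pde9a gained one under both scalings. The groups did not overlap in 10 of the 28, against 27.4% of all genes. A log2 fold change above 1 or below -1 together with the adjusted p was met by 0 of the 28 with limma and by 1, Adcy1, with voom on the reads, against 1.94% of all genes with limma. The median log2 fold change was 0.07 for the 28 genes and 0.09 for all genes, the latter falling to 0.01 with median-of-ratios factors.

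**Figure D1:**
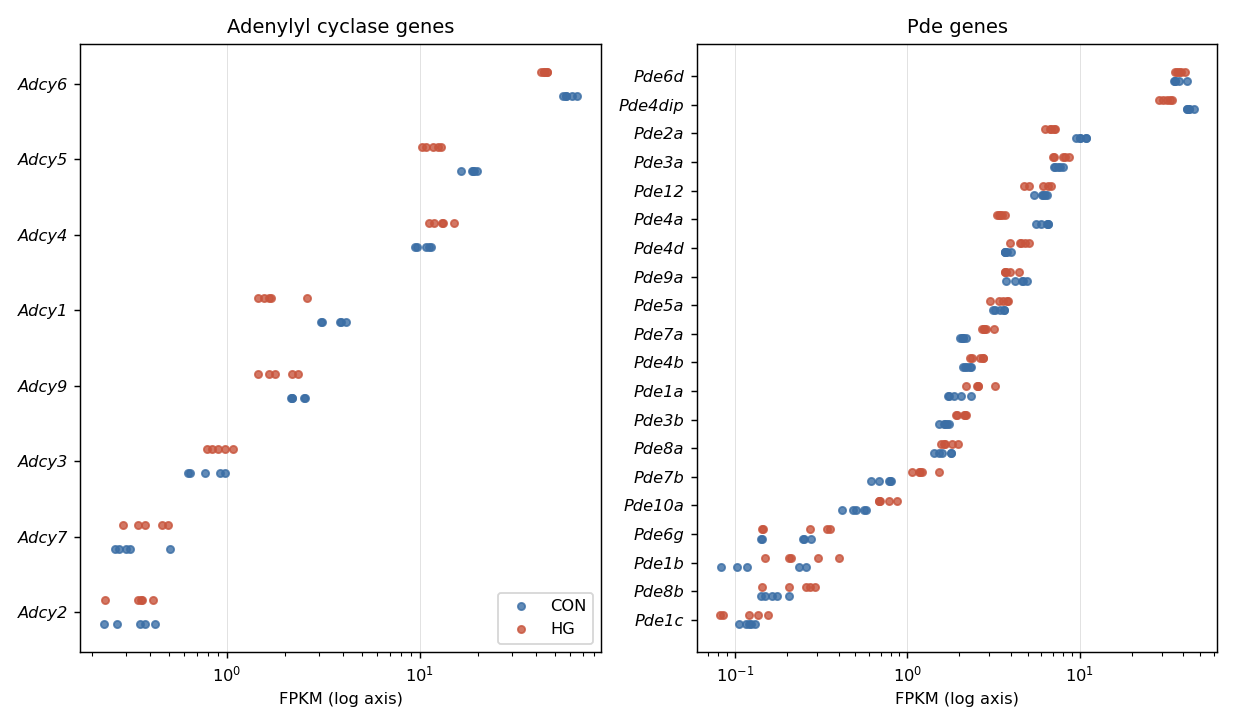
Level of each gene in each library in FPKM on a log axis, Adcy genes on the left and Pde genes on the right, ordered by mean level. Blue points are the 5 CON and red points the 5 HG libraries; the groups lie apart for 10 genes, among them Adcy6, Adcy5, Adcy1, Pde2a and Pde4a on the lower side in HG and Pde7a and Pde7b on the higher side.

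**Figure D2:**
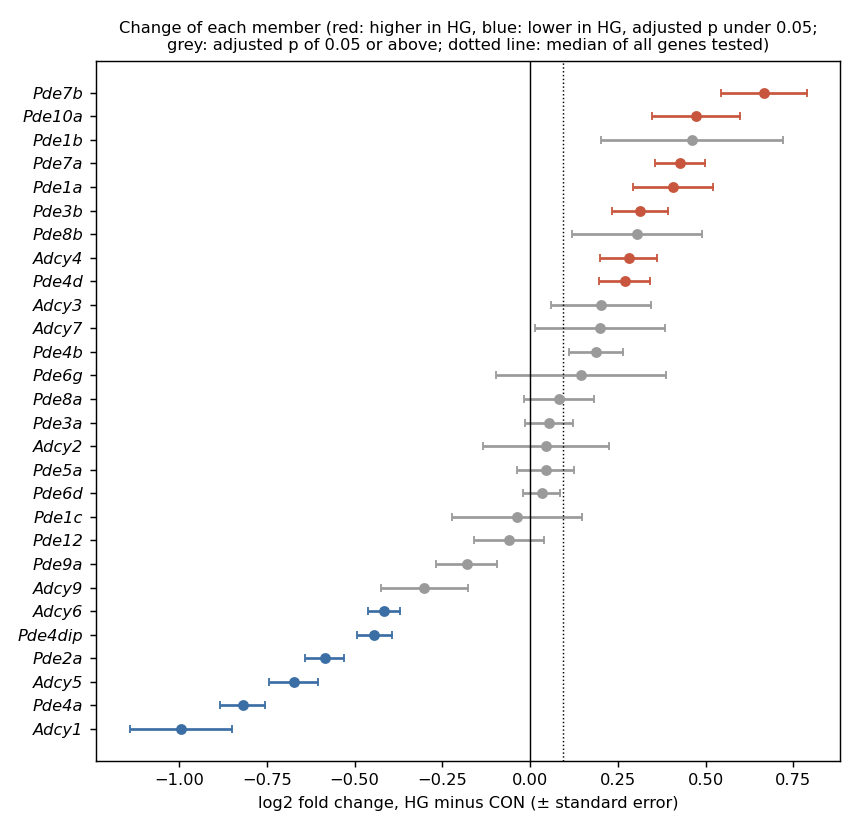
Log2 fold change of each gene, HG minus CON, with its standard error, from the model on log2(FPKM + 0.1). Red and blue points passed the test, and values run from -0.99 for Adcy1 to 0.67 for Pde7b around the median of all genes at 0.09 (dotted line).

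Among the cyclases, the genes that lead in heart muscle were lower in HG. Adcy5 and Adcy6 encode the calcium-inhibited cyclases that carry most of the cAMP response of cardiomyocytes. Adcy6 (NCBI Gene 25289), the most abundant cyclase gene, stood at 55.5, 57.1, 57.0, 61.2 and 65.5 FPKM in CON and at 42.6, 45.8, 43.9, 44.0 and 45.5 FPKM in HG. The lowest CON library lay above the highest HG library. Its mean went from 59.3 ± 4.09 to 44.4 ± 1.28 FPKM (SD, n = 5 each), a log2 fold change of -0.42 (standard error 0.0465, limma adjusted p = 4.0e-05). Adcy5 (64532) was measured at 16.4, 19.7, 18.8, 19.2 and 18.7 FPKM in CON and at 12.4, 12.8, 11.7, 10.8 and 10.3 FPKM in HG. The groups did not overlap here either, and the log2 fold change was -0.67 (standard error 0.0692, limma adjusted p = 2.2e-05).

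Adcy1 (305509), a calmodulin-stimulated cyclase known mainly from the brain, showed the largest change of the 28 genes. CON libraries held 3.07, 4.15, 3.10, 3.92 and 3.84 FPKM, from 176 to 244 reads each, and HG libraries 1.69, 1.66, 1.45, 1.57 and 2.59 FPKM, from 81 to 139 reads. HG replicate 5 stood above the other HG libraries but below every CON library. The mean fell from 3.62 ± 0.501 to 1.79 ± 0.456 FPKM (SD, n = 5 each), a log2 fold change of -0.99 (standard error 0.146, limma adjusted p = 0.00026). Leaving out HG replicate 5, CON replicate 1 or CON replicate 3 put it past the fold threshold, as did several other settings. Adcy1 belongs to a list of genes that the study chose on these same libraries, so its direction is not independent evidence for that list.

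The cyclases stimulated by G protein beta-gamma subunits, Adcy2, Adcy4 and Adcy7, did not share this direction. Adcy4, a cyclase of vessels and the third most abundant, went from 10.5 ± 0.882 to 12.8 ± 1.47 FPKM (SD, n = 5 each), a log2 fold change of 0.28 (standard error 0.0811, limma adjusted p = 0.0157). Its groups overlapped, CON reaching 11.5 and HG starting at 11.1 FPKM. The call did not hold with median-of-ratios factors or quantile normalization, where the adjusted p rose to at most 0.0728. Adcy2 and Adcy7, both under 1 FPKM, had log2 fold changes of 0.05 and 0.20 and did not pass. For Adcy3, known from olfactory neurons, the value was 0.20, also short of the test. Adcy9, a cyclase with little response to forskolin, had a log2 fold change of -0.30 (SE 0.124, limma adjusted p = 0.0706), and passed in 6 of 23 alternatives.

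Summed over the 8 cyclase genes, the level was 90.2 to 102.6 FPKM in CON and 70.6 to 77.7 FPKM in HG. The groups did not overlap, nor did they after median-of-ratios scaling, at 93.6 to 105.5 against 69.7 to 75.7 FPKM. Within the sum, Adcy4 held 10.1% to 12.7% in CON and 15.8% to 19.5% in HG, while Adcy5 held 18.2% to 21.0% and 13.3% to 17.3%. A factor that scales a whole library leaves these shares unchanged, but quantile normalization can change them, and they were not computed after it. Adcy6 held 60.8% to 63.9% in CON and 58.9% to 62.4% in HG, so that its share overlapped between groups. The sums and shares are given as descriptions, with no test.

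Of the cAMP-specific phosphodiesterases, families Pde4, Pde7 and Pde8, 4 of 7 passed the test (57.1%, against 40.1% of all genes). In HG 3 were higher and 1 lower, where 28.4% of all genes were higher and 11.8% lower. Pde4a (25638), of the family that limits beta-adrenergic cAMP, was the lower one. Its level was 5.96, 6.52, 5.61, 6.48 and 6.53 FPKM in CON and 3.55, 3.44, 3.67, 3.31 and 3.42 FPKM in HG. The groups lay far apart, 5.61 FPKM being the lowest in CON and 3.67 FPKM the highest in HG. The log2 fold change of -0.82 (standard error 0.0631) had the smallest adjusted p of the 28 genes, 2.6e-06 by limma.

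Pde4d and Pde4b, the other Pde4 genes over the level limit, differed from it in sign, whereas Pde4c, under the limit, did not. Pde4d, the family member found with the ryanodine receptor and phospholamban in heart muscle, rose from 3.78 ± 0.123 to 4.59 ± 0.421 FPKM (SD, n = 5 each; log2 fold change 0.27, standard error 0.0715, limma adjusted p = 0.0102). This call was lost with median-of-ratios factors and quantile normalization, where the adjusted p was at most 0.0831. Pde4b, also a cardiac form, had a log2 fold change of 0.19 and an adjusted p of 0.0734. Within the sum of these 3 genes, Pde4a held 48.8% to 52.8% in CON and 30.4% to 34.6% in HG, and Pde4d 29.5% to 32.3% and 38.6% to 45.0%. The ratio of Pde4a to Pde4d was thus 1.51 to 1.76 in CON libraries and 0.675 to 0.897 in HG libraries, above 1 in each of the former and below 1 in each of the latter.

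**Figure D3:**
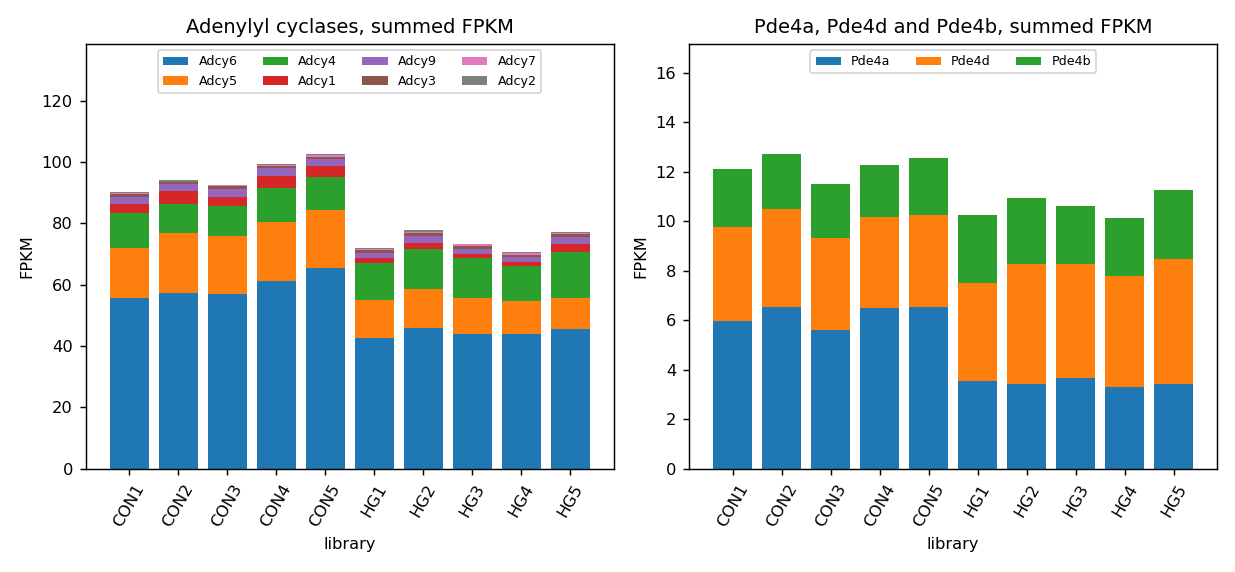
Summed FPKM of the 8 cyclase genes (left) and of Pde4a, Pde4d and Pde4b (right) in each library, as stacked bars from 0. The cyclase sum is 90.2 to 102.6 FPKM in CON and 70.6 to 77.7 FPKM in HG, and the blue Pde4a segment is 5.61 to 6.53 FPKM high in CON and 3.31 to 3.67 FPKM in HG.

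Both genes of the Pde7 family, high-affinity cAMP enzymes, rose. Pde7b (140929) was at 0.786, 0.791, 0.807, 0.618 and 0.686 FPKM in CON and at 1.17, 1.53, 1.06, 1.18 and 1.21 FPKM in HG. All HG libraries lay above all CON libraries, and the log2 fold change of 0.67 (standard error 0.122, limma adjusted p = 0.0011) was the largest increase of the 28 genes. Pde7a (81744) stood at 2.09, 2.12, 2.18, 2.03 and 2.10 FPKM in CON and at 2.72, 2.77, 2.86, 2.78 and 3.18 FPKM in HG. It too had no overlap, its log2 fold change being 0.43 (standard error 0.0704, limma adjusted p = 0.00056). Pde8a and Pde8b, the family insensitive to the inhibitor IBMX, had log2 fold changes of 0.08 and 0.30 and did not pass.

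The phosphodiesterases that cleave both cyclic nucleotides gave 4 calls among 7 genes (57.1%, against 40.1% of all genes). Of these calls 3 were higher and 1 lower, where 28.4% of all genes were higher and 11.8% lower. Pde2a (81743), which cGMP stimulates to cleave cAMP, had 10.01, 9.58, 10.05, 10.9 and 10.9 FPKM in CON and 6.28, 6.82, 7.15, 7.12 and 6.74 FPKM in HG. It stood above Pde3a, the next of the phosphodiesterases proper, in 5 of 5 CON libraries and in 1 of 5 HG libraries, and its groups did not overlap. The log2 fold change was -0.59 (standard error 0.0561, limma adjusted p = 1.3e-05). Its share of the summed phosphodiesterases was 19.9% to 22.9% in CON and 14.4% to 16.9% in HG.

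Pde1a (81529), a calcium- and calmodulin-dependent enzyme, held 1.72, 2.05, 1.86, 1.76 and 2.35 FPKM in CON and 2.56, 2.54, 3.24, 2.18 and 2.58 FPKM in HG. HG replicate 4 fell below the highest CON library, so the groups overlapped, and the log2 fold change was 0.41 (standard error 0.115, limma adjusted p = 0.0138). Pde10a (63885), known mainly from the striatum, was at 0.558, 0.577, 0.507, 0.418 and 0.486 FPKM in CON and at 0.686, 0.782, 0.872, 0.686 and 0.696 FPKM in HG. Here the groups were apart, at a log2 fold change of 0.47 (standard error 0.126, limma adjusted p = 0.0105). Pde3b, the cGMP-inhibited enzyme known from insulin action in fat and liver, rose from 1.65 ± 0.0840 to 2.07 ± 0.125 FPKM (SD, n = 5 each; log2 fold change 0.31, limma adjusted p = 0.0079). Pde3a, the form that predominates in heart muscle, was at 7.50 ± 0.351 and 7.81 ± 0.737 FPKM (SD, n = 5 each), with a log2 fold change of 0.05 that did not pass and changed sign under both scalings. The remaining calcium-dependent genes, Pde1b and Pde1c, had log2 fold changes of 0.46 and -0.04 at levels under 0.5 FPKM, and neither passed.

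Of the cGMP-specific genes, 0 of 3 passed in limma, where 40.1% of all genes did, 0 had an unadjusted p under 0.05, and 0 passed with voom. Pde5a, the target of sildenafil, and Pde9a, an enzyme of natriuretic peptide cGMP, had log2 fold changes of 0.04 and -0.18. Pde9a passed with both other scalings and without CON replicate 3, where its log2 fold change was -0.24 (limma adjusted p = 0.0348). Pde6g, a regulatory subunit of the photoreceptor enzyme, had a value of 0.14 at levels under 0.5 FPKM. Summed over the 17 genes of phosphodiesterases proper, Pde6g included, levels of 45.2 to 48.6 FPKM in CON and 42.1 to 46.7 FPKM in HG overlapped, but with median-of-ratios factors they did not, at 46.77 to 49.997 against 41.6 to 44.7 FPKM. The ratio of this sum to that of the cyclases was 0.474 to 0.513 in CON and 0.586 to 0.636 in HG. The sum includes the cGMP-specific genes, so the ratio does not set cAMP breakdown against its synthesis. A factor that scales a whole library leaves this ratio unchanged, but quantile normalization can change it.

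The most abundant Pde symbols were no phosphodiesterases. Pde4dip (64183), which tethers Pde4d and other proteins at the Golgi, the centrosome and the sarcomere, stood at 42.0, 42.0, 42.9, 45.9 and 43.0 FPKM in CON and at 33.4, 28.8, 31.9, 30.4 and 34.3 FPKM in HG. It fell with no overlap, at a log2 fold change of -0.44 (standard error 0.0498, limma adjusted p = 4.0e-05). Pde6d (363272) was at 37.5, 41.9, 35.9, 35.1 and 35.5 FPKM in CON and at 36.8, 38.8, 35.9, 40.7 and 37.7 FPKM in HG. Its groups overlapped over most of their range, and the log2 fold change was 0.03 (standard error 0.0530, limma adjusted p = 0.655). Pde12 had a log2 fold change of -0.06 and did not pass.

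Another 7 genes were under the level limit. Adcy8, a calcium-stimulated cyclase of the brain, had 0 to 16 reads per library, Adcy10, the bicarbonate-sensitive soluble cyclase, 1 to 14, and Pde11a, which cleaves both nucleotides, 0 to 5. Pde6a, Pde6b and Pde6h, subunits of photoreceptor enzymes, had at most 2 reads in a library. Pde4c had 13 to 27 reads in CON and 7 to 12 in HG, so that the groups did not overlap. Without the limit on levels, Pde4c had a log2 fold change of -0.44 (limma adjusted p = 0.0119), and it is on the same list of the study as Adcy1. Pde6h also passed there (limma adjusted p = 0.0128), at 0 to 2 reads in CON and 0 in every HG library, a level too low for a fold change.

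Spearman's rho of mean level and log2 fold change was -0.53 across the 28 genes and -0.10 across all 14542, a description across genes that share the same libraries.

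**Figure D4:**
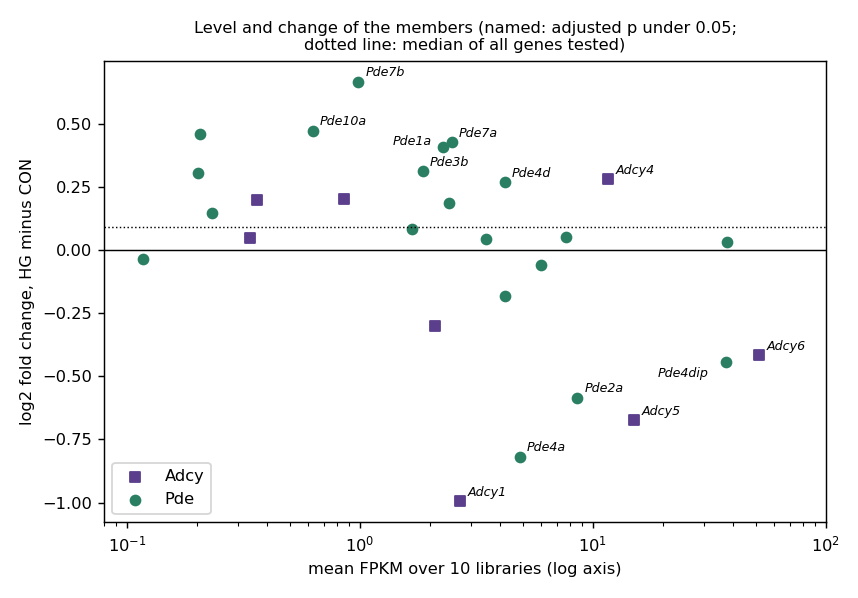
Log2 fold change, HG minus CON, against the mean FPKM over 10 libraries on a log axis, with squares for Adcy and circles for Pde genes and names for those that passed the test. Adcy6, Adcy5, Pde4dip and Pde2a lie low on the right, at -0.42 to -0.67. Adcy4, at a mean of 11.7 FPKM, lies above 0 at 0.28. At lower levels Pde7b, Pde10a, Pde7a, Pde1a, Pde3b and Pde4d lie above 0 and Pde4a and Adcy1 below it.

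The rest of the pathway was followed in 11 lists with 100 genes, of which 78 reached the level limit. The test was passed by 40 of the 78, 17 higher and 23 lower in HG, a share of 51.3% against 40.1% of all genes. This count depended on the scaling: with median-of-ratios factors 29 passed, 5 higher and 24 lower (37.2% against 33.2% of all genes), and after quantile normalization 31, 7 higher and 24 lower (39.7% against 33.9%). At the top of the pathway the main cardiac receptor and its G protein gave small differences that did not pass: Adrb1, the beta-adrenergic receptor of cardiomyocytes, had a log2 fold change of 0.02 and Gnas, the stimulatory alpha subunit, 0.04. Prkaca, the main catalytic subunit of PKA, had -0.05.

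Gs-coupled receptors were higher in 4 of 13 (30.8%, where 28.4% of all genes were) and lower in 3 (23.1%, where 11.8% were). Under both other scalings 2 of them were higher and 3 lower. Gipr, the receptor of the incretin GIP, fell from 13.7 ± 3.01 to 5.86 ± 1.57 FPKM (SD, n = 5 each), a log2 fold change of -1.21 (limma adjusted p = 0.00044). Adcyap1r1, the PACAP receptor, rose by 0.98 on the log2 scale and did not exceed 1.03 FPKM in any library. Of 8 listed Gi-coupled receptors 4 were tested, of which 3 were lower, where 11.8% of all genes were, and 0 higher. The lower ones were Adora1, the adenosine receptor that slows the heart (-0.63), Adra2b, an alpha-adrenergic receptor (-0.50), and Chrm2, the muscarinic receptor of the vagus (-0.26). The groups overlapped for each of them. The other tested gene, Adra2a, went the other way, with a log2 fold change of 0.82. It reached at most 0.278 FPKM and did not pass (limma adjusted p = 0.0562). G protein alpha subunits were higher in 2 of 7 (28.6%, where 28.4% of all genes were) and lower in 1 (14.3%, where 11.8% were). Gnao1 was at -0.20, Gnai1 at 0.18 and Gnai3 at 0.16. With median-of-ratios factors 0 of 7 were higher, and after quantile normalization 1 was.

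Among PKA subunits and inhibitors 1 of 8 was higher, the regulatory subunit Prkar1b (0.96), and 1 lower, Prkar1a (-0.13). Each is 12.5% of those tested, where 28.4% of all genes were higher and 11.8% lower. A-kinase anchoring proteins, which hold PKA near its targets, were higher in 3 of 11 (27.3%) and lower in 5 (45.5%). Under both other scalings 2 were higher and 5 lower. Akap3, known from sperm, was at 0.182 to 0.367 FPKM in CON and at 0 to 0.0871 FPKM in HG, so the size of its fold change depends on the pseudocount. Akap5 and Akap1, which anchor PKA at the plasma membrane and at mitochondria, had log2 fold changes of -0.55 and -0.32. Other cAMP effectors were lower in 2 of 7 (28.6%, against 11.8% of all genes), the pacemaker channel Hcn2 (-0.44) and Popdc2 (-0.14), and higher in 0. CREB factors and coactivators were higher in 4 of 8 and lower in 0 in the deposited FPKM, where 28.4% of all genes were higher, but in 0 of 8 with median-of-ratios factors or quantile normalization, the latter with 1 lower. Crem was at 0.31, Crtc1 at 0.17 and Atf1 at 0.14 on the deposited scale.

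Cardiac PKA substrates were lower in 6 of 8, where 11.8% of all genes were, and higher in 1; under both other scalings 6 were lower and 0 higher. Ryr2, the calcium release channel, fell by 0.62 on the log2 scale, Tnni3, cardiac troponin I, by 0.54, and Pln, phospholamban, by 0.48. These 3 are also among the cardiomyocyte markers, of which 7 of 9 were lower. On the cGMP side, 1 of 5 guanylyl cyclase genes was higher (20%, where 28.4% of all genes were), Gucy1b1 of the nitric oxide receptor (0.24). With median-of-ratios factors 0 were higher, and after quantile normalization 1 was. Nitric oxide synthases and PKG gave 1 higher and 2 lower of 5, where 28.4% of all genes were higher and 11.8% lower. These were Nos3 of the endothelium (0.25), Nos1 (-0.84) and Prkg2 (-0.68), the last 2 under 0.5 FPKM. Under both other scalings 0 were higher, and with the replicate block 0 of 5 passed. The exporters Abcc4 and Abcc5 did not pass. Gipr, Adcyap1r1, Nos1 and Prkg2 are on the list that the study chose on these libraries.

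**Figure D5:**
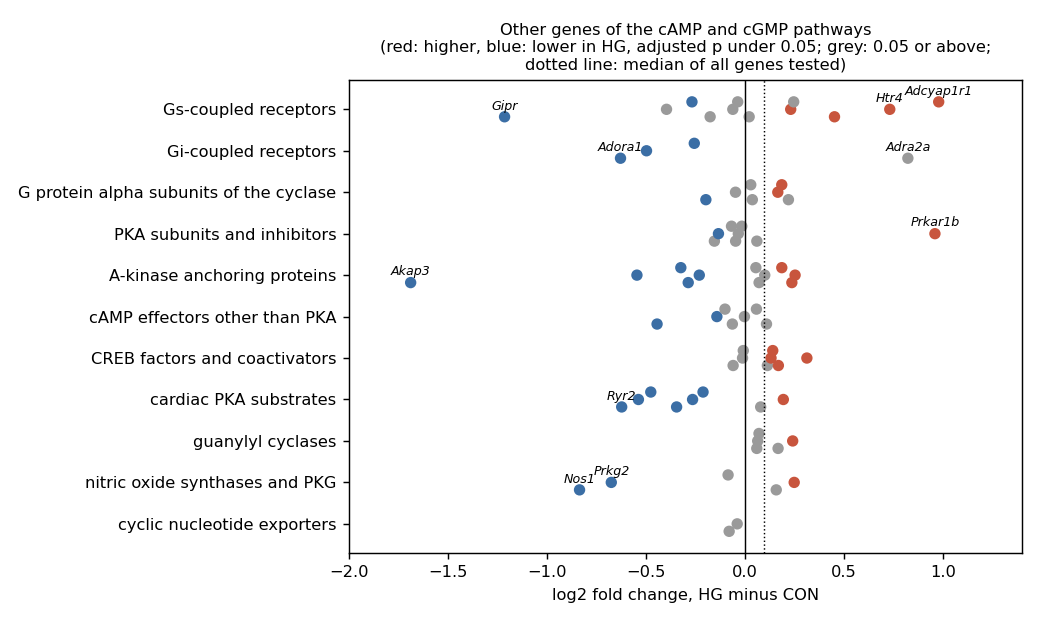
Log2 fold change, HG minus CON, of the tested genes of the 11 pathway lists, 1 of them left out, with 1 point a gene and 1 row a list. Red points are higher and blue points lower in HG; cardiac PKA substrates lie mostly left of 0, with 6 of 8 lower, and CREB factors have 4 higher and 0 lower, of which 0 were higher under the other scalings.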

How the data were processed

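Stranded mRNA libraries of fetal hearts (5 CON, 5 HG) were grouped by their titles. The authors deposited FPKM per gene; per the labels' processing notes, fastp, HISAT2, HTSeq, R 3.2.0 and build mRatBN7.2 were used. All per-sample columns were used (0 unused). FPKM do not suit the study's count-based test and were therefore put on a log2(FPKM + 0.1) scale and fitted with limma 3.58.1 (R 4.3.3, moderated test with a trend, no covariate) on 14542 genes that averaged 0.1 FPKM or more; these fold changes understate those of low genes. Every value was a whole multiple of 1 read (within 0.01 reads, 100% of genes), which gave the read numbers and an alternative with voom. Intervals of single libraries were not computed, so precision is given by the spread over 5 libraries.

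The genes, the 11 pathway lists and the 12 marker lists were chosen with earlier results of these data known. Named genes were every member with its log2 fold change. Values in every library were given for called members with an absolute log2 fold change of at least 0.4 and for the most abundant Adcy and 2 Pde genes. At most 3 called genes with the largest change were named per pathway list, besides Gnas, Prkaca, Adrb1 and Adra2a. Of the genes so named, 1 is not reported here. The fit was tested on simulated data. Python 3.11.15, pandas 2.3.3 and matplotlib 3.10.9 were also used. The 23 alternatives are given in the closing section.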

Additional observations from a re-analysis of the deposited data

Results flagged for a closer look

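A library far from the others of its group was found in 5 of 68 groups of 5 examined, where chance gives about 1 in 20. Adcy1 stood at 2.59 FPKM (139 reads) in HG replicate 5, the next HG library being at 1.69 FPKM. Adcy7 reached 0.508 FPKM in CON replicate 5, against 0.316 FPKM in the next. Pde4dip was at 45.9 FPKM in CON replicate 4, against 43.0 FPKM. Pde6a in HG replicate 4 (0.0138 FPKM) and Pde6b in HG replicate 1 (0.0377 FPKM) each rested on 1 read, with 0 in the other HG libraries.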

How the results depend on the processing

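Of the 13 calls, 11 kept their direction and call in every alternative in which the gene was tested, and Adcy4 and Pde4d lost theirs with median-of-ratios factors and quantile normalization. The number called was 11 with a limit of 1 FPKM, which leaves out Pde7b and Pde10a, and 13 to 15 otherwise, 15 with no filter and with voom. The count past the fold threshold, 0 as reported, was 1 (Adcy1) with a pseudocount of 0.01, median-of-ratios factors, quantile normalization, array weights, the ratio of mean FPKM and voom, and 0 to 1 when 1 library was left out (1 without CON replicate 1, CON replicate 3 or HG replicate 5). Directions of uncalled genes near 0 (Adcy2, Pde1c, Pde3a, Pde5a, Pde6d, Pde8a and Pde12) changed in some settings; the cause was not tested. With the replicate block 13 members were called, 7 higher and 6 lower, and 35.0% of all genes. The same 7 higher and 6 lower were counted with a pseudocount of 1 and with hemoglobin genes left out. They were also counted with the level of Y chromosome genes as a covariate. Without the trend 14 were called, 8 higher and 6 lower. Of the 78 pathway genes, 40 as reported, 34 passed with the replicate block, 31 after quantile normalization and 29 with factors from median ratios. Libraries with the same replicate number did not deviate together (correlations -0.126 to 0.108, 1 of 5 pairs over 0.1, and 0 of 5 CON libraries correlated best with its own number), so the numbers were not treated as pairs. Members under the level limit rest on at most 27 reads per library, which limits the precision of their fold changes.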
